A study of Mus musculus with 8 samples.

Results

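The serpins are a family of protease inhibitors that in the mouse are named by a clade letter and a number, and the levels of all genes with such a symbol were followed in skin and keratinocytes of JunB cKO and wild type mice. Members were taken by symbol from 3 tables of gene loci, giving 61 serpin genes among 26457 loci for unperturbed keratinocytes, 55 among 47990 for plucked skin and 55 among 46726 for wounds. Together these were 62 symbols, 54 of which were in all tables. For Serpinb1a, Serpinb9b, Serpine2 and Serpinh1 the plucked table held a second locus, and the locus kept was chosen by the larger FPKM summed over both genotypes. Symbols that share a locus with another gene, and pseudogenes with a suffix, did not match and were kept apart. All mice were C57BL/6. In JunB cKO mice (genotype JunB -/-), floxed JunB alleles were deleted by a Cre under the keratin 14 promoter, which is used in basal cells of the epidermis and hair follicle, so that JunB was not targeted in fibroblasts, blood cells or vessels, and wild type mice (JunB +/+) served as controls. The unperturbed pair is labelled as keratinocytes isolated with trypsin, without treatment, whereas the study describes dorsal skin of 60-days-old mice. The plucked pair was harvested 4 days after hair depilation, at postnatal day 58, and is labelled as a skin biopsy and also as keratinocyte. The wound pair is labelled as skin 30 days after wounding, where 4 full-thickness wounds of 6 mm were set per mouse, and the age of these mice is not given in the sources used here. Each library was made from RNA pooled over 3 samples of a group, so that a value stands for the pool. The series holds 8 libraries, a single one per genotype for unperturbed keratinocytes and for plucking, respectively, and 2 per genotype for wounds.

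A typical serpin offers a protease a loop that is cut like a substrate, and the cleaved serpin then folds around the bound enzyme and traps it. Clade A members such as α1-antitrypsin (the Serpina1 genes) and α1-antichymotrypsin (the Serpina3 genes in the mouse) are secreted, whereas clade B members lack a classical signal peptide and act mostly inside cells, many of them in stratified epithelia or leukocytes. Clades C to I comprise regulators of coagulation, fibrinolysis and complement, and also members that inhibit no protease, such as the collagen chaperone Serpinh1 and the pigment epithelium-derived factor Serpinf1. In the epidermis, serpins are known as counterparts of the kallikreins and other proteases that loosen the cornified layer.

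All levels are FPKM, the number of reads normalized to transcript length and library size, and each table held 1 value per genotype and locus. No difference described here therefore has a replicate check, no test was possible, and the 2 libraries per genotype behind a wound value could not be separated. Differences were calculated as log2((cKO + 1)/(WT + 1)) and are given as log2 ratio, which understates the difference of genes with a low FPKM, and a gene was counted as higher or lower at a limit of 2-fold on this scale. The tables were normalized separately, with different sets of loci, so levels set side by side across tables are approximate. Read numbers were estimated from steps in the FPKM of short receptor genes. Per 1 kb of transcript, 1 FPKM corresponded to 13.3 reads in the unperturbed wild type library and 3.92 in that of JunB cKO, to 34.1 and 31.7 in wounds and to 10.1 in plucked JunB cKO, where 3 loci gave the value. The estimate for JunB cKO wounds rests on only 2 loci. With 1 locus in plucked wild type, no estimate was made there. Junb, the deleted gene, was at a lower level in JunB cKO throughout, with log2 ratios of -3.05, -1.71 and -1.06 in unperturbed keratinocytes, plucked skin and wounds, respectively. The keratinocyte markers Krt5 and Krt14 were at 2592 and 1212 FPKM in unperturbed wild type, where the 6 fibroblast markers summed to 13.7 FPKM, whereas these summed to 5109 in plucked and 10532 in wounded wild type skin.

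The serpin genes differed widely in level. Of the 62 symbols, 20 reached an FPKM of 10 in any table and 23 never reached 1. In unperturbed wild type keratinocytes, Serpinb2, which encodes plasminogen activator inhibitor type 2, was the most abundant serpin with 630 FPKM, 39.1% of the summed FPKM of all serpin genes. Serpinb5, the gene of maspin, a serpin of epithelial cells without known inhibitory activity, followed with 482 FPKM and 29.9%. Serpinb7 (megsin, known in the upper epidermis) was next with 133 FPKM, then the furin inhibitor Serpinb8 with 51.3 and Serpina3h with 51.1, so that the first 5 genes held 83.7%. In plucked wild type skin the order was Serpinb5 (345), Serpinb6a (238), Serpinb8 (194), Serpinb7 (119) and Serpinh1 (95.8 FPKM). In wounds it was Serpinb6a (319), Serpinf1 (272), Serpinb5 (238), Serpinh1 (167) and Serping1, the complement C1 inhibitor (137 FPKM). Without separate libraries, it cannot be said which neighbours in these orders differ beyond their spread. Serpinb2 has no row of its own in the plucked and wound tables, where it shares a locus with Serpinb10. The Serpinb6a locus also spans Nqo2 and Ripk1 in these 2 tables, but ends with the gene in the unperturbed table. Its values are therefore not of the same locus throughout.

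The clades thus had different weights in the sampled tissues. Clade B held 88.5% of the serpin FPKM in unperturbed wild type, 66.7% in plucked and 49.2% in wounded wild type skin. For clades C to I together the corresponding shares were 1.53%, 15.8% and 43.0%. Clade A stood between 7.80% in wounds and 17.5% after plucking. The same shares in JunB cKO were 85.9%, 71.0% and 44.4% for clade B and 2.55%, 10.1% and 45.0% for clades C to I. The loci that Serpinb2 and Serpinb3b share with a neighbour are not part of these sums, which lowers the share of clade B in the plucked and wound tables only. Summed over all serpin genes, FPKM was 1611 in wild type versus 1093 in JunB cKO in unperturbed keratinocytes, 1428 and 1179 after plucking, and 1385 and 1416 in wounds, and Serpinb2 alone accounted for most of the unperturbed difference.

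**Figure D1:**
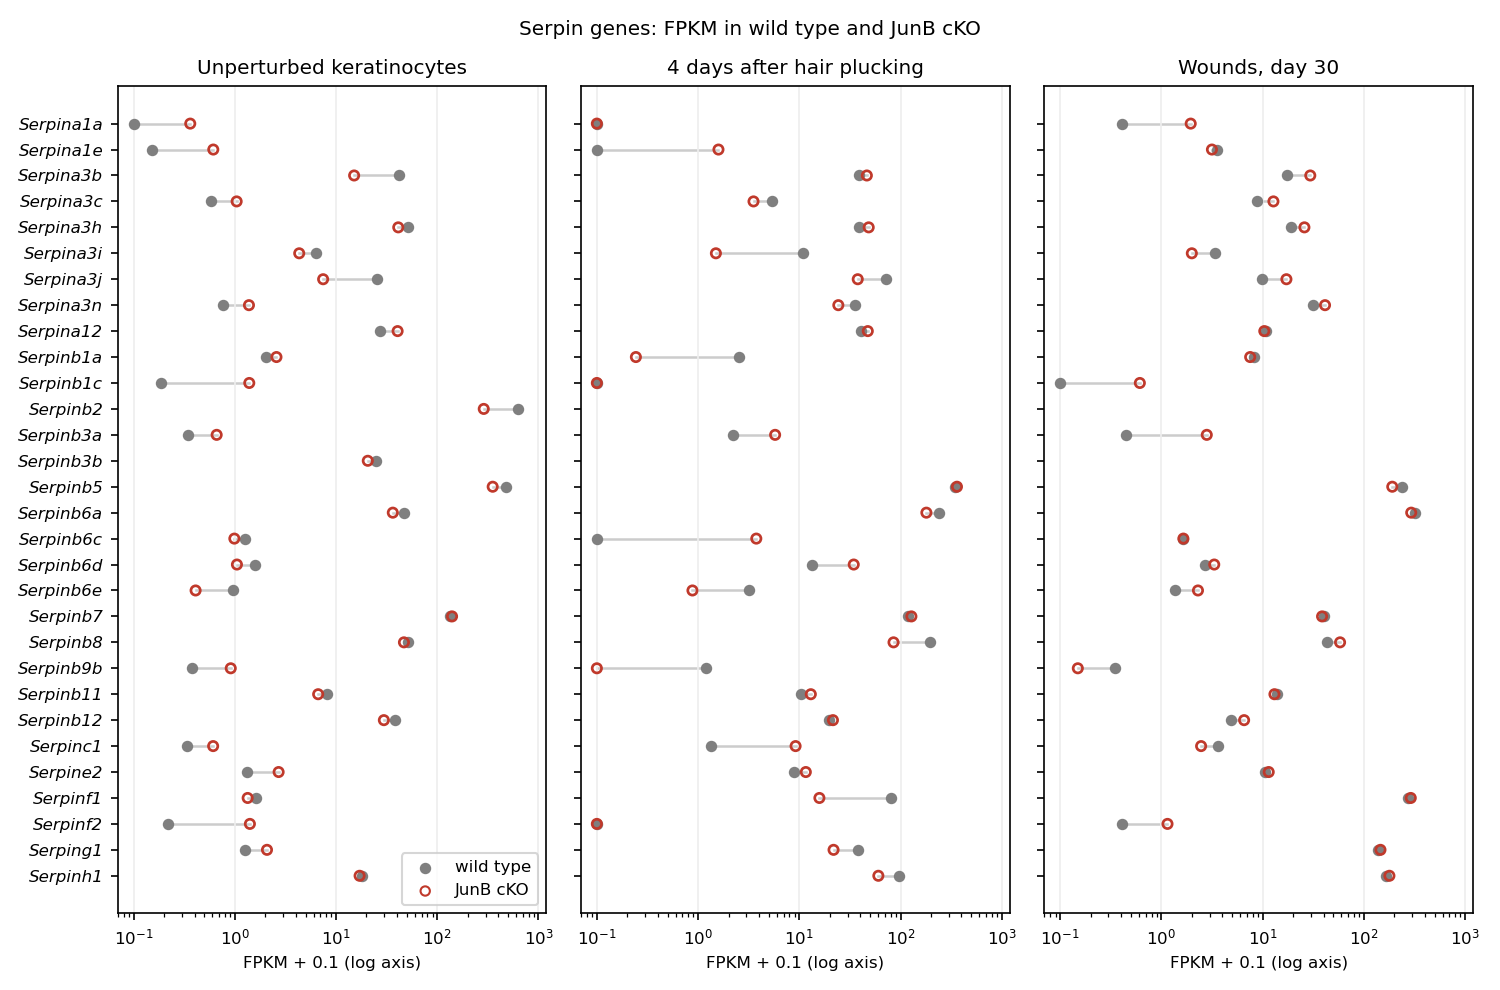
FPKM of the 30 serpin genes that reached an FPKM of 10 or differed 2-fold in any table, in wild type (grey, filled) and JunB cKO (red, open), on a log axis after addition of 0.1. Each point is 1 value per genotype without replicates, and a gene without points in a panel has no row of its own in that table. Serpinb5 lies at the upper end in all panels, between 191 and 482 FPKM, and Serpinf1, Serping1 and Serpinh1 lie further to the right in wounds (137 to 291 FPKM) than in unperturbed keratinocytes.

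Most of the abundant epidermal serpins are neighbours. On chromosome 1 of GRCm38, the genes from Serpinb5 (start 106861173) to Serpinb8 (end 107610484) made up 81.4% to 85.1% of the serpin FPKM in unperturbed keratinocytes. JunB belongs to the AP-1 transcription factors. The window of 250 bases before to 50 bases after the start site was therefore searched for TGANTCA. This AP-1 pattern, in which the middle base N was left free, reads the same on both strands. It was found in 10 of the 52 serpin genes with a RefSeq window (19.2%), and in 2425 of all 27025 genes (8.97%). The serpin genes with a match were Serpina1a, Serpina1b, Serpina1c and Serpina1d on chromosome 12 and the chromosome 1 genes Serpinb2, Serpinb5, Serpinb7, Serpinb8, Serpinb11 and Serpinb12. The windows of Serpina1a to Serpina1d closely resemble each other, with TGACTCA at -229 to -240. Their matches are thus not independent, which raises the serpin share. The middle base was C in the Serpina1 genes, G in Serpinb7 and Serpinb8, and A or T in Serpinb2, Serpinb5, Serpinb11 and Serpinb12. A match describes the letters only, and neither binding nor use of these windows was measured in these tables. The bases upstream of the start are shown for 5 of these epidermal genes and for the clade A genes Serpina3b and Serpina3j, which had the lowest log2 ratios in unperturbed keratinocytes. All are on the plus strand, written 5′ to 3′ from RefSeq (GRCm38.p6), with the motif in capitals. Its first base lies at -94 from the start in Serpinb2 (chr1:107511173-107511422), at -140 in Serpinb5 (chr1:106860925-106861174), at -45 in Serpinb7 (chr1:107422439-107422688), at -23 in Serpinb8 (chr1:107589756-107590005) and at -45 in Serpinb12 (chr1:106934199-106934448). In Serpinb8, TGAGTCA occurs again 13 bases after the start, past the bases shown. In Serpina3b (chr12:104127746-104127995) and Serpina3j (chr12:104314320-104314569) no match to TGANTCA is in the window. The Serpinb7 start is that of a transcript beginning inside the longer annotated gene. The Serpina3j start also lies inside the annotated gene, which begins at 104314553, so the last bases shown belong to it. No window from that earlier start was searched.
Serpinb2: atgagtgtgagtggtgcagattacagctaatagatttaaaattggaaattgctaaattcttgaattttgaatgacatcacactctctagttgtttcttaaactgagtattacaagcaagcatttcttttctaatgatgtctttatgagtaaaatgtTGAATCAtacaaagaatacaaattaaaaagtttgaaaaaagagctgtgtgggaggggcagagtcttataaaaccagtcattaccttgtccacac
Serpinb5: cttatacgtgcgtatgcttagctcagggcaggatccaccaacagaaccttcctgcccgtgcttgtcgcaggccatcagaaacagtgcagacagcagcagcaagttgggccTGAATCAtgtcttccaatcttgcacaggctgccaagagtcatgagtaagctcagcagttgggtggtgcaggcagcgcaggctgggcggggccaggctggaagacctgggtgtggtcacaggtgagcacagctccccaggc
Serpinb7: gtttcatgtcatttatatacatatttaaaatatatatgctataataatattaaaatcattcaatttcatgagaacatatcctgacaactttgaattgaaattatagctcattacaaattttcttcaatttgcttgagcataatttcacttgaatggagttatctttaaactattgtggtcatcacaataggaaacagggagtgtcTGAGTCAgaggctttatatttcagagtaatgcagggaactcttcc
Serpinb8: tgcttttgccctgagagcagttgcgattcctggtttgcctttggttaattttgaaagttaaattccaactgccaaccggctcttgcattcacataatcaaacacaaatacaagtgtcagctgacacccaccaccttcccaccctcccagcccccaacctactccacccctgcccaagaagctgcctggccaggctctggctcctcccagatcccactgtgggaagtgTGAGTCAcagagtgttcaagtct
Serpinb12: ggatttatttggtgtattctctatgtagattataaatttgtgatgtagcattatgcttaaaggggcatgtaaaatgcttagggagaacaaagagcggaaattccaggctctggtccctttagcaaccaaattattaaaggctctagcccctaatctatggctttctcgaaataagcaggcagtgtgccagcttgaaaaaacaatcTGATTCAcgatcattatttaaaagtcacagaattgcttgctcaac
Serpina3b: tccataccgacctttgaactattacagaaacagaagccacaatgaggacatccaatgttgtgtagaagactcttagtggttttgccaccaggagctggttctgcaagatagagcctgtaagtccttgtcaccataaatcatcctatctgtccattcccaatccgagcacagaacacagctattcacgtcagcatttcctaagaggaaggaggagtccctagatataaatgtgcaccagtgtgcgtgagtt
Serpina3j: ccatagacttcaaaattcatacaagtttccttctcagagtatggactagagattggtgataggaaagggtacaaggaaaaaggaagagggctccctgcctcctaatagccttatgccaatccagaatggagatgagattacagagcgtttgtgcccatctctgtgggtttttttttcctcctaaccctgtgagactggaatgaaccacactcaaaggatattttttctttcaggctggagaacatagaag

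In unperturbed keratinocytes, the question was which serpins differed without JunB in the absence of injury. Lower in JunB cKO were Serpina3j, Serpina3b and Serpinb2, and the other abundant serpins differed by less than 2-fold. Serpinb2 did not pass 2-fold when ratios were centred on the median of expressed loci (-0.97). At 2-fold, 3 of 61 serpin genes were lower (4.92%, beside 0.858% of all loci) and 2 were higher (3.28%, beside 9.31% of all loci). The median log2 ratio was 0.30 for the serpin genes and 0.13 for all loci. For the 25 serpin genes with a mean FPKM of at least 1, it was -0.19, beside -0.12 for the 13300 loci of this level.

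On chromosome 1, Serpinb2 was at 630 FPKM in wild type versus 288 in JunB cKO (log2 ratio -1.13), about 16744 and 2255 reads. Serpinb2 thereby passed from the first to the second place among the serpins of JunB cKO keratinocytes. Serpinb5 was at 482 in wild type versus 353 in JunB cKO (-0.45), and this locus held about 17120 and 3702 reads. Serpinb7 was at 133 and 140 (0.07), and Serpinb8 at 51.3 and 46.8 (-0.13). Genes of the same cluster with a lower level were close to each other in both genotypes as well. Serpinb12, the gene of yukopin, was at 38.1 and 29.6 (-0.35), Serpinb3b, a homolog of the squamous cell carcinoma antigens, at 24.5 and 20.5 (-0.25) and Serpinb11 at 8.09 and 6.56 (-0.27). Of the 11 clade B genes on chromosome 1, 1 was at least 2-fold lower and 0 were higher, and their median log2 ratio was -0.13. In the windows shown above, Serpinb2 holds TGAATCA and Serpinb7 holds TGAGTCA, and a link of these letters to the levels was not tested.

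In clade A, the secreted antichymotrypsin-like Serpina3b was at 42.1 FPKM in wild type versus 15.0 in JunB cKO (-1.43), about 1158 and 122 reads. Its relative Serpina3j was at 25.1 and 7.36 (-1.64), about 720 and 62 reads. Both genes share hardly any sequence of read length with other genes, namely 0.15% and 0.144% of their 75-base words, and 3 words with each other. Serpina3h, a neighbour of similar level, did not share this difference. This gene, annotated as a transcribed pseudogene, was at 51.1 and 41.1 (-0.31). At a lower level, Serpina3i was at 6.29 and 4.23 (-0.48). Serpina12, which encodes the adipokine vaspin and is also known in epidermis, was higher with 26.9 in wild type versus 40.5 in JunB cKO (0.57), below the limit of 2-fold.

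To place these ratios, all loci were grouped by mean FPKM. At 10 to 30 FPKM, the 5th and 95th percentile of the log2 ratios of 3901 loci were -0.67 and 0.33, and at 300 to 1000 FPKM those of 105 loci were -0.89 and 1.13. Of the 25 serpin genes with a mean FPKM of at least 1, Serpina3b, Serpina3j and Serpinb2 lay below the 5th percentile of their group and Serpina12 above the 95th. This is a description of these 2 libraries and not a test.

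**Figure D2:**
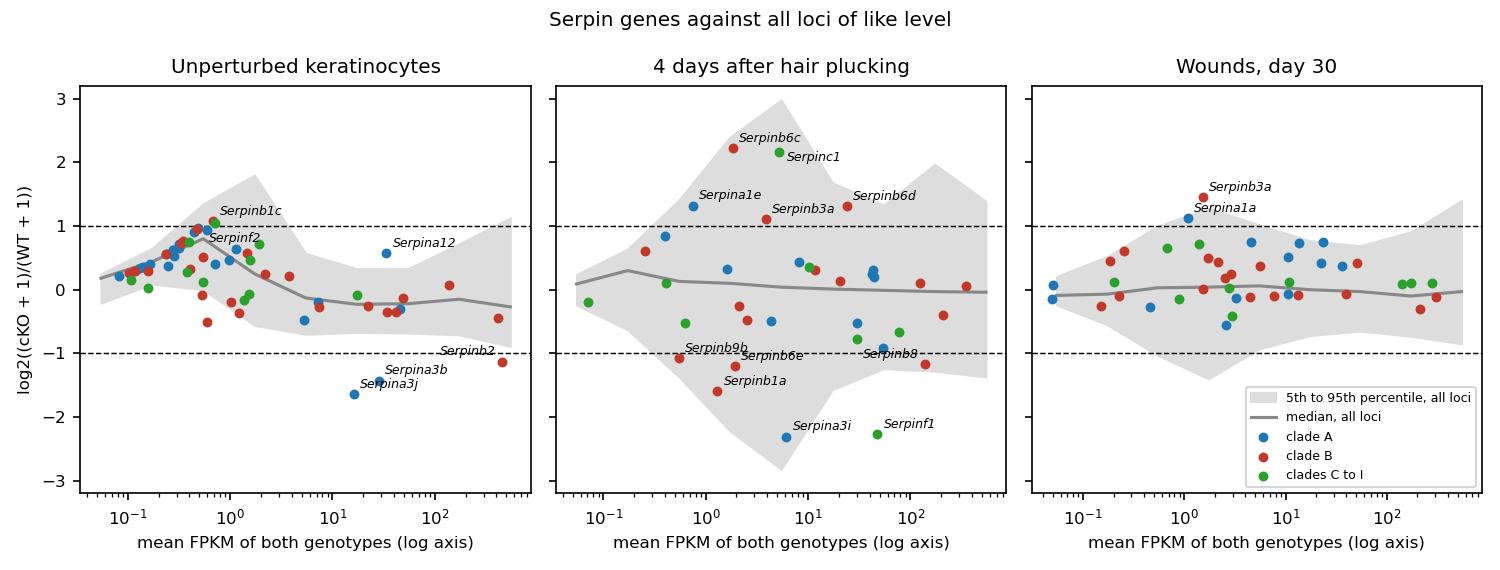
Log2 ratio of JunB cKO over wild type against the mean FPKM of both genotypes (log axis) for serpin genes of clade A (blue), clade B (red) and clades C to I (green), over the 5th to 95th percentile of all loci of like level (grey band) and their median (grey line). Dashed lines mark 2-fold, and genes past them are named, as is Serpina12. The band is widest after plucking, where it reaches from -2.82 to 2.98 at 3 to 10 FPKM and only Serpinf1 lies outside among genes with a mean FPKM of at least 1.

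The serpins counted as higher in unperturbed JunB cKO were both near the lower end of detection. Serpinb1c, a relative of the neutrophil elastase inhibitor Serpinb1a, was at 0.0846 in wild type versus 1.29 in JunB cKO (1.08), about 2 and 8 reads. Serpinf2, the gene of α2-antiplasmin, was at 0.119 and 1.31 (1.05), about 3 and 11 reads. Low serpins as a whole leaned to JunB cKO in this table. Of the 32 serpin genes below 1 FPKM in both genotypes, 29 were higher in JunB cKO, 2 lower and 1 was listed at 0 in both, and their median was 0 in wild type versus 0.498 in JunB cKO. Of the 18 serpin genes listed at 0 in wild type, 17 were listed between 0.164 and 0.965 in JunB cKO. They include Serpina1a, Serpina1b and Serpina1c, relatives of a plasma protein of the liver, and the 5 genes from Serpinb9c to Serpinb9g, relatives of the granzyme B inhibitor.

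The same lean was present in sensory receptor genes, used here as a reference for low levels. The 1453 odorant, vomeronasal and taste receptor genes had a median of 0 in wild type versus 0.543 in JunB cKO, and 4.75% of them were above 0 in wild type against 86.1% in JunB cKO. The 95th percentile of these receptor genes in JunB cKO was 1.65 FPKM. The 32 low serpin genes, chosen below 1 FPKM, lie under it by that choice. Serpinb1c and Serpinf2, at 1.29 and 1.31 FPKM in JunB cKO, were below it as well. The part of this background in the ratios of these serpin genes was not tested.

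**Figure D3:**
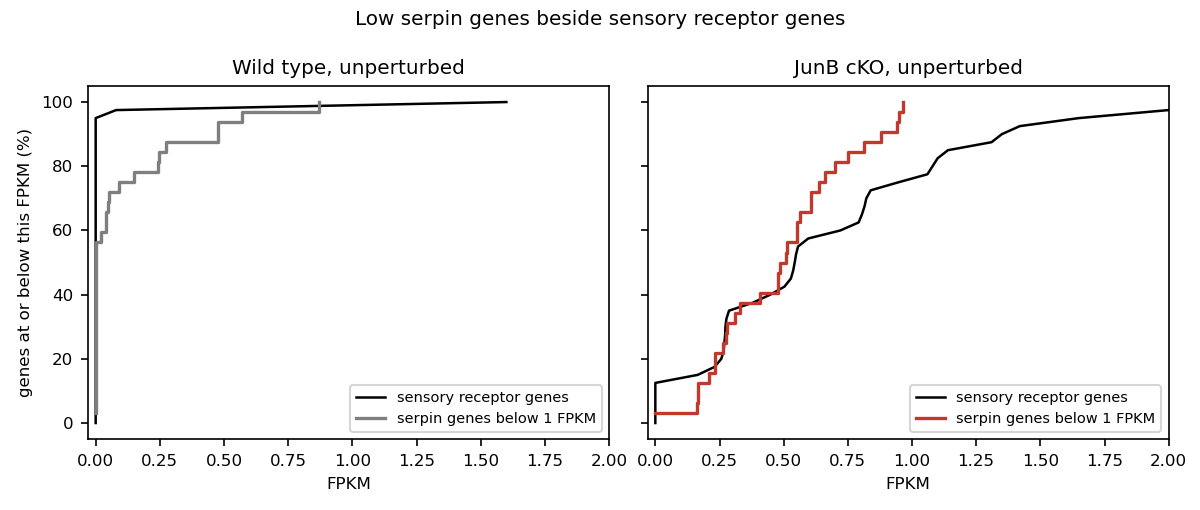
Share of genes at or below a given FPKM in unperturbed wild type (left) and JunB cKO (right), for 1453 sensory receptor genes (black, read at steps of 2.5 percentiles and drawn up to 2 FPKM) and the 32 serpin genes below 1 FPKM in both genotypes (grey or red). Both curves are shifted to the right in JunB cKO, with medians of 0.543 for receptor genes and 0.498 for serpin genes. Only the serpin genes were chosen below 1 FPKM, so the curves are of unlike sets.

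After hair plucking, which starts a new growth phase of the follicles, more serpins differed between the genotypes, and so did more loci of any kind. Lower in JunB cKO were 6 of 55 serpin genes (10.9%, beside 5.65% of all loci) and higher were 5 (9.09%, beside 6.50% of all loci). The lower group consisted of Serpina3i, Serpinf1, Serpinb1a, Serpinb6e, Serpinb8 and Serpinb9b, and the higher group of Serpinb6c, Serpinc1, Serpina1e, Serpinb6d and Serpinb3a. The median log2 ratio of the serpin genes was 0.00, as for all loci, and 21 serpin genes were listed at 0 in both genotypes. Among the 27 serpin genes with a mean FPKM of at least 1, it was 0.06, beside 0.02 for 15737 loci, and only Serpinf1 lay outside the 5th to 95th percentile of loci of its level.

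Of the epidermal serpins on chromosome 1, Serpinb8 was at 194 FPKM in plucked wild type skin and 85.2 in JunB cKO (-1.17). Its neighbours Serpinb5, at 345 and 361 (0.06), and Serpinb7, at 119 and 128 (0.11), were almost level between genotypes. The same applied to Serpinb12, at 19.5 and 21.4 (0.13), and Serpinb11, at 10.3 and 12.9 (0.31). Serpinb3a, a further homolog of the squamous cell carcinoma antigens, was higher with 2.09 in wild type versus 5.67 in JunB cKO (1.11). In contrast to unperturbed keratinocytes, the locus shared by Serpinb2 and Serpinb10 was level, at 142 and 146 (0.04), but the reads of both genes cannot be told apart there.

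The clade B genes on chromosome 13, which encode intracellular inhibitors also known from leukocytes, were divided. Serpinb6a was at 238 and 180 FPKM (-0.40), in a locus that also spans Nqo2 and Ripk1 on the other strand. Its relative Serpinb6d was at 13.3 in wild type versus 34.4 in JunB cKO (1.31), and Serpinb6c was listed at 0 in wild type but at 3.66 in JunB cKO (2.22), about 49 reads. Serpinb6e went the other way, with 3.08 and 0.780 (-1.20). These 4 genes lie between 33661405 and 34002794 on chromosome 13, and at most 0.399% of the read-length words of Serpinb6c, Serpinb6d or Serpinb6e occur in another gene. Serpinb1a, the inhibitor of neutrophil elastase, was at 2.45 in wild type versus 0.143 in JunB cKO (-1.59), the latter about 3 reads. Serpinb9b, a relative of the granzyme B inhibitor, was at 1.10 in wild type but listed at 0 in JunB cKO (-1.07). The 6 neutrophil markers, which include S100a8 and S100a9 that keratinocytes also use, summed to 4.11 in wild type versus 405 in JunB cKO, with Ly6g, Camp and Ngp listed at 0 in both.

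Of the serpins of clades E to H with an FPKM of at least 10 after plucking, Serpinf1 passed 2-fold and the others did not. Serpinf1, the gene of pigment epithelium-derived factor, was at 79.6 FPKM in wild type versus 15.7 in JunB cKO (-2.27), and among loci of 30 to 100 FPKM the 5th percentile was -1.24. Serping1, the C1 inhibitor, was at 38.1 and 21.7 (-0.78). Serpinh1, which assists the folding of collagen, was at 95.8 and 60.3 (-0.66). Serpine2, the gene of the thrombin inhibitor protease nexin, was on the other side with 8.80 and 11.5 (0.36). The fibroblast markers moved in the same direction as Serpinf1, as 6 of 6 were lower in JunB cKO, 3 of them at least 2-fold, and their sum was 5109 in wild type versus 1856 in JunB cKO, with none at 0. Macrophage markers were at least 2-fold lower in 4 of 4, with sums of 88.5 and 22.7, and skeletal muscle markers in 3 of 3 measured, with sums of 78.5 and 13.7. Keratinocyte markers were higher in 5 of 7, with sums of 6220 and 7956. Markers of other cell types lay on both sides. Of 4 endothelial markers 1 was higher and 3 lower, with sums of 68.8 and 51. Of 4 adipocyte markers 1 was higher and 3 lower, with sums of 22 and 21.4. Of 4 T cell markers 2 were higher and 1 lower, with sums of 43.3 and 26.3. Of 6 mast cell markers 2 were higher and 2 lower, with sums of 28.9 and 46.1. The part of cell composition in the serpin values was not tested, and in such bulk samples fewer cells of a type and less RNA per cell cannot be told apart.

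**Figure D4:**
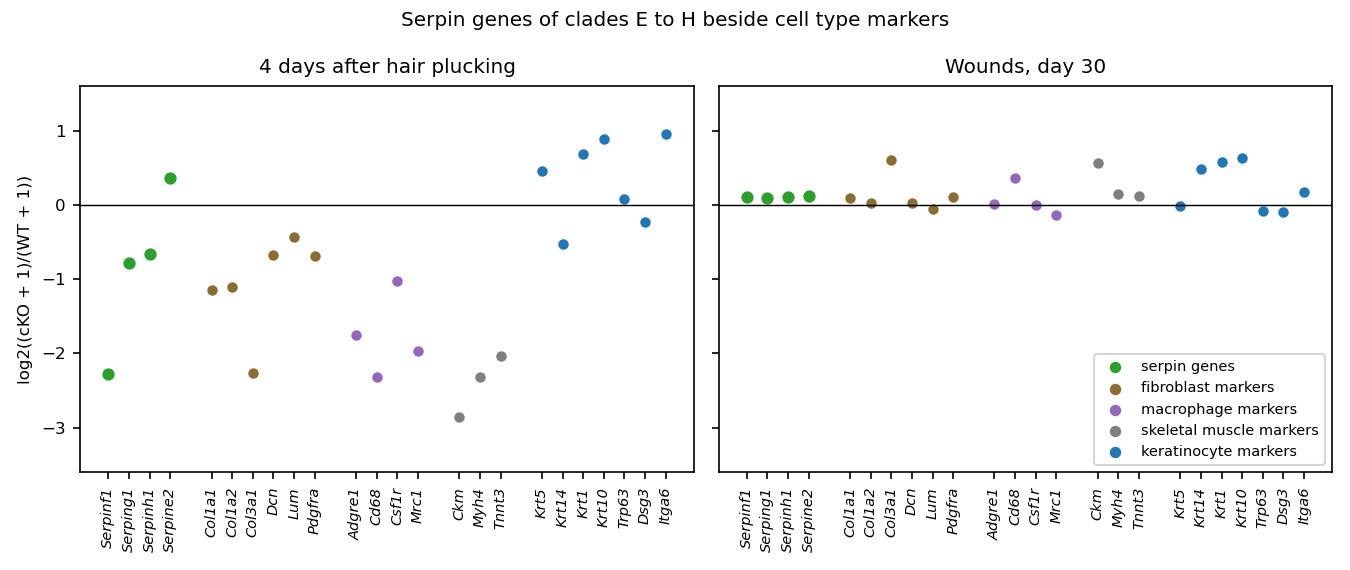
Log2 ratio of JunB cKO over wild type for 4 serpin genes of clades E to H (green) and for markers of fibroblasts (brown), macrophages (purple), skeletal muscle (grey) and keratinocytes (blue), after plucking (left) and in wounds (right), 1 value per gene. After plucking, Serpinf1, Serping1, Serpinh1 and all fibroblast, macrophage and muscle markers lie below 0, whereas in wounds the 4 serpins lie between 0.09 and 0.12. Markers of endothelium, adipocytes, T cells and mast cells, which lay on both sides after plucking, are not drawn.

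Serpinc1 and Serpina1e, known as liver products, were also higher in plucked JunB cKO skin. Serpinc1, the gene of antithrombin, was at 1.25 in wild type versus 9.09 in JunB cKO (2.16). Its locus in this table runs from 160978585 to 161038539 on chromosome 1, beyond the end of the gene at 161005863, and includes Gas5 and Zbtb37, so the value need not belong to Serpinc1. Serpina1e was listed at 0 in wild type but at 1.49 in JunB cKO (1.32), about 24 reads, while the other 5 Serpina1 genes were listed at 0 in both genotypes. Of 6 hepatocyte markers, 5 were at 0 in both genotypes and Apoa1 was at 0.147 in wild type only.

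In wounds at day 30, serpins of JunB cKO and wild type skin were closer to each other. None of 55 serpin genes was at least 2-fold lower (0%, beside 1.98% of all loci), and 2 were at least 2-fold higher (3.64%, beside 2.16% of all loci). Serpinb3a was at 0.351 FPKM in wild type versus 2.71 in JunB cKO (1.46), about 19 and 139 reads. Among the 31 serpin genes with a mean FPKM of at least 1, it alone lay outside the 5th to 95th percentile of loci of its level. Serpina1a, which encodes an α1-antitrypsin, was at 0.306 and 1.85 (1.13), about 14 and 80 reads. As 69.6% of the read-length words of Serpina1a also occur in other Serpina1 genes, its value cannot be assigned to this gene alone. Serpina1e stood at 3.43 and 3.06 (-0.13). The hepatocyte marker Alb was at 1.19 and 3.44 in the same libraries, and the other 5 markers of this list were below 1 FPKM. The median log2 ratio of the serpin genes was 0.00, as for all loci, and 0.12 for the 31 serpin genes with a mean FPKM of at least 1, beside 0.01 for 16762 loci.

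The abundant serpins of the wounds were almost level. Serpinb6a was at 319 in wild type versus 294 in JunB cKO (-0.12), Serpinb5 at 238 and 191 (-0.31) and Serpinb7 at 40.2 and 38.6 (-0.06). Serpinb8, lower after plucking, was at 43.1 and 58.2 (0.42). Serpins of clades E to H were level as well, with Serpinf1 at 272 and 291 (0.10), Serping1 at 137 and 146 (0.09), Serpinh1 at 167 and 179 (0.10) and Serpine2 at 10.4 and 11.4 (0.12). Fibroblast markers had a median log2 ratio of 0.06 in these libraries, beside -0.89 after plucking. For the locus of Serpinb2 and Serpinb10, the values were 64.8 and 40.8 (-0.65).

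The Serpina3 genes, which multiplied in the mouse from 1 ancestral antichymotrypsin gene and lie between 104112724 and 104414329 on chromosome 12, lay on different sides in the tables. In unperturbed keratinocytes 6 of 11 were higher in JunB cKO and 5 lower. The 6 higher genes were at most at 1.28 FPKM in JunB cKO, within the range of the receptor genes of that library, and the 5 genes above that range were all lower. The summed FPKM of the 11 genes was 134 in wild type versus 79.8 in JunB cKO. After plucking 4 of 9 were higher, 4 lower and 1 listed at 0 in both, and the sums were 208 and 172. In wounds 6 of 9 were higher and 2 lower, with a median log2 ratio of 0.42 beside 0.00 over all loci, and the sums were 93.3 and 135.

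Serpina3b, lower in unperturbed JunB cKO, was at 38.9 and 46.4 after plucking (0.25) and at 17.2 and 29.5 in wounds (0.75). Serpina3j was at 71.5 and 37.7 after plucking (-0.91) and at 9.88 and 17.1 in wounds (0.73), so that the gene was lower in JunB cKO in the first 2 tables and higher in the third. Serpina3n, the mouse gene used as a marker of tissue injury, was at 35.5 and 24.2 after plucking (-0.53) and at 31.5 and 41.3 in wounds (0.38), beside only 0.659 and 1.28 in unperturbed keratinocytes. In Serpina3h the values were 38.9 and 48.4 after plucking (0.31) and 19.0 and 25.8 in wounds (0.42). Serpina3c was at 5.24 and 3.43 after plucking (-0.49), and at 8.65 and 12.7 in wounds (0.51). Serpina3g, which is known from T cells and interferon responses, was at 6.73 and 9.51 after plucking (0.44) and at 3.11 and 5.93 in wounds (0.75).

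Serpina3i was below wild type in each table. It was at 10.9 FPKM in wild type versus 1.40 in JunB cKO after plucking (-2.31), and at 3.26 and 1.90 in wounds (-0.55), where Serpina3g, Serpina3h and Serpina3j around it were higher. After plucking, its neighbour Serpina3j was lower too, as given above. Of its read-length words, 6.87% also occur in Serpina3h, Serpina3g or Serpina3f, and for Serpina3g and Serpina3h these shares were 8.91% and 12.8%. Reads of these 3 genes may therefore have been divided among them by the authors' counting. None of the Serpina3 differences in wounds reached 2-fold.

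**Figure D5:**
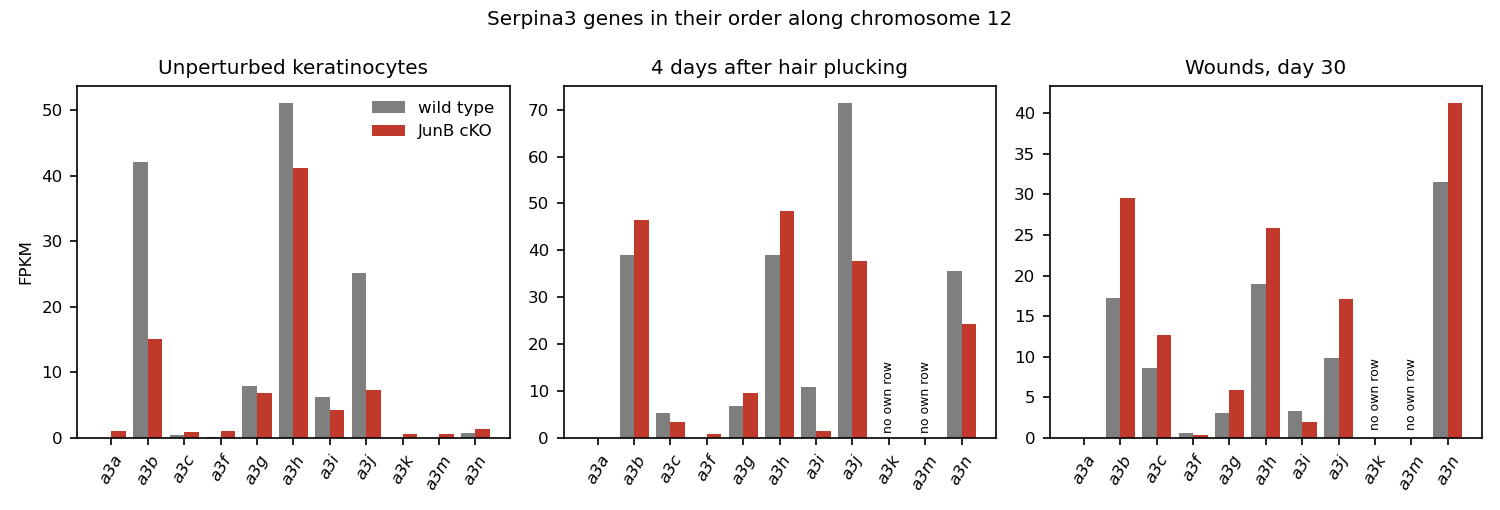
FPKM of the Serpina3 genes in their order along chromosome 12, in wild type (grey) and JunB cKO (red), 1 value per bar, with a separate axis from 0 for each table. In unperturbed keratinocytes the JunB cKO bars of Serpina3b and Serpina3j are well below wild type (15.0 against 42.1 and 7.36 against 25.1), whereas in wounds they are above it (29.5 against 17.2 and 17.1 against 9.88), and genes without a row of their own are marked.

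Serpinb3a was the only serpin gene with a 2-fold difference in the same direction in more than 1 table. It was higher in JunB cKO after plucking and in wounds, as given above, and was low in unperturbed keratinocytes, at 0.248 and 0.562 (0.32). Serpinb3b and Serpinb3c share a locus in the plucked and wound tables, which falls outside the choice by symbol. This locus was at 14.6 in wild type versus 39.9 in JunB cKO after plucking (1.39), and at 5.04 and 10.7 in wounds (0.95). In Serpinb3a, 8.15% of the read-length words occur elsewhere, in Serpinb3b and in the predicted gene Gm8080, so reads of the more abundant neighbour may enter its value.

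Across tables, 17 of the 62 serpin genes differed at least 2-fold in any table, none was lower at this limit in more than 1 table, and Serpinb3a was higher in 2. Of the 54 serpin genes in all tables, 29.6% differed in any table, beside 27.0% of the 21441 symbols found in all tables. Higher in more than 1 table were 1.85% of these serpin genes and 1.04% of all symbols, and lower 0% and 0.364%, so the serpin shares are near those of all symbols. Of 21 serpin genes with a mean FPKM of at least 1 in all tables, Serpine2 was higher in JunB cKO in all 3, with log2 ratios of 0.71, 0.36 and 0.12 in unperturbed keratinocytes, plucked skin and wounds, respectively. The first of these ratios rests on 1.21 and 2.61 FPKM, about 36 and 23 reads, within the range of receptor genes in JunB cKO (up to 3.9 FPKM). It was 0.47 after subtraction of the receptor median. Serpina3i (-0.48, -2.31 and -0.55) and Serpinb6a (-0.35, -0.40 and -0.12) were lower in all 3, the latter with the wider locus in plucked skin and wounds. The other 18 were not on the same side in all tables. How many of all symbols keep to the same side was not counted. Serpina12 was level in plucked skin, at 41.0 and 47.4 (0.20), and in wounds, at 10.8 and 10.3 (-0.07).

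The remaining 32 serpin genes neither reached an FPKM of 10 nor differed 2-fold in any table. Of all 55 serpin genes of a table, 21 were listed at 0 in both genotypes after plucking and 11 in wounds. Listed at 0 in both tables were, among others, Serpina1c and Serpina1d, the hormone carrier Serpina6 and the genes from Serpinb9c to Serpinb9g. Between 20.3% and 69.6% of the read-length words of Serpina1a to Serpina1e, and up to 65.5% in the Serpinb9 group, are shared with other genes, so that low values of these genes are uncertain.

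The proteases that serpins act on and the cofactors of serpins were described from lists of 39 and 11 genes. Among 38 proteases measured, 4 were at least 2-fold higher in unperturbed JunB cKO (beside 9.31% of all loci) and 0 lower (beside 0.858%), with a median log2 ratio of 0.29 beside 0.13 for all loci. They were Klk6 (2.66 in wild type versus 6.93 in JunB cKO), Klk14 (0 and 1.13) and the mast cell tryptases Tpsb2 (0 and 1.81) and Tpsab1 (0 and 1.35), all but Klk6 at the level of receptor genes or little above. After plucking, 2 were higher and 6 lower, beside 6.50% and 5.65% of all loci. The urokinase Plau, a target of Serpinb2, was at 17.6 and 7.03 (-1.21), and the tissue plasminogen activator Plat at 5.96 and 1.87 (-1.28). The cornified layer proteases went both ways. Klk6 was at 268 in wild type against 50.7 in JunB cKO (-2.38) and Klk10 at 62.3 against 26.2 (-1.22). Klk11, at 22.7 against 64.7 (1.47), and Klk14, at 0 against 1.45 (1.29), were higher. Also lower were Ctsk, at 106 against 34.6 (-1.59), and Htra1, at 312 against 141 (-1.14). In wounds 1 protease was higher, beside 2.16% of all loci, namely Klk8, at 8.53 and 22.6 (1.31).

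Among the 11 receptors and cofactors, the urokinase receptor gene Plaur was at 3.56 and 16.3 in plucked skin (1.92), opposite to Plau. Procr, the endothelial receptor for protein C, was listed at 0 in wild type but at 3.35 in JunB cKO (2.12), whereas Thbd, the gene of thrombomodulin, was at 11.4 and 3.77 (-1.38) and Sdc1 at 198 and 94.6 (-1.06). Of the 11 genes, 2 were thus higher and 2 lower after plucking, beside 6.50% and 5.65% of all loci. In unperturbed keratinocytes only Procr passed 2-fold, at 0.408 and 1.85 (1.02), little above the 95th percentile of receptor genes of 1.65 FPKM. Of all loci, 9.31% were higher and 0.858% lower there. In wounds 0 of 11 passed 2-fold, beside 2.16% of all loci higher and 1.98% lower. The list medians were -0.10, 0.00 and 0.11 in unperturbed keratinocytes, plucked skin and wounds, beside 0.13, 0.00 and 0.00 for all loci.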

How the data were processed

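RNA-seq tables of JunB cKO and wild type mice were used for unperturbed keratinocytes, plucked skin and wounds. The authors depleted rRNA from pooled RNA, prepared stranded libraries, sequenced single-end reads of 75 bases, aligned them to GRCm38 (mm10) with TopHat 2.1.0 or HISAT2 and calculated FPKM with Cufflinks 2.2.1 and Cuffdiff. The deposited FPKM values are 1 per genotype and locus. The authors' fold changes, p-values and q-values, which the tables also hold, were not used. Genotypes were taken from the columns and labels.

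Serpin genes were matched by symbol. Members, lists and named genes were chosen with earlier results of these data known. Named genes reached an FPKM of 10 or differed 2-fold in any table, and other clusters were described as groups. From other lists up to 6 genes past 2-fold were named, but of the proteases after plucking all were. Ratios were taken after adding 1 to each FPKM, and no test was made. Limits were varied as described in the closing section. Reads per FPKM came from receptor loci of 880 to 1000 bp. Shared 75-base words were counted in the transcripts of GENCODE M21, which also gave coordinates, and promoter windows came from RefSeq. Calculations were tested on simulated data, and run in Python 3.11.15 with pandas 2.3.3, numpy 2.4.6 and matplotlib 3.10.9.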

Additional observations from a re-analysis of the deposited data

Results flagged for a closer look

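Serpina3b and Serpina3j lay on opposite sides in different tables. The log2 ratio of JunB cKO over wild type of Serpina3b was -1.43 in unperturbed keratinocytes and 0.75 in wounds. That of Serpina3j was -1.64 in unperturbed keratinocytes, -0.91 after plucking and 0.73 in wounds. With 1 value per genotype and table, the difference between the tables was not tested, and the tables differ in tissue as well as in treatment.

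The locus shared by Serpinb3b and Serpinb3c, which the choice by symbol leaves out, was at 39.9 FPKM in plucked JunB cKO skin, above the 14.6 FPKM of the wild type control.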

How the results depend on the processing

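Among the 504 recalculated log2 ratios of named serpin genes, 0 reversed their direction after passing 2-fold, 483 stayed on their side of 2-fold, 18 newly passed it, all with a smaller pseudocount, and 3 no longer passed it. The latter were Serpinb2 in unperturbed keratinocytes, at -0.97 when ratios were centred on the median of expressed loci, and Serpinb1c and Serpinf2, at 0.69 and 0.66 when the median FPKM of receptor genes was subtracted. Serpina3b (-1.48 to -1.27) and Serpina3j (-1.77 to -1.49) passed 2-fold in all 6 settings.

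Counts of serpin genes higher in unperturbed JunB cKO moved most, from 2 to 28 and 31 with pseudocounts of 0.1 and 0.01, to 6 after centring, to 0 after subtraction of the receptor median and to 15 at a limit of 1.5-fold. After plucking, 3 in place of 5 genes were higher without genes listed at 0, a setting chosen after the data had been seen. In wounds, the count of higher genes moved from 2 to 6 and 7 with pseudocounts of 0.1 and 0.01 and to 8 at 1.5-fold, and that of lower genes from 0 to 1 and 5 with these pseudocounts. The median of all unperturbed serpin genes moved from 0.30 to 0.86 with a pseudocount of 0.1 and to -0.13 with a minimum FPKM of 1.

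No paired analysis was possible because the wound table has 1 column per genotype, and fits without 1 wound library or with limma were not run for the same reason. Depth limits the low genes of the unperturbed pair, where 1 FPKM stood for 3.92 reads per kb in JunB cKO.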

Other observations

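Serpin loci outside the choice by symbol are given as values only, and were picked after these had been seen. The pseudogene Serpinb10-ps, next to Serpinb2, was at 10.4 FPKM in wild type versus 8.82 in JunB cKO in unperturbed keratinocytes. After plucking, Serpina3l-ps was at 1.84 in wild type but listed at 0 in JunB cKO, and in wounds Serpina3e-ps was at 0.292 and 1.53. The locus shared by Serpina3k and Serpina3m was at 0.799 in wild type versus 0 in JunB cKO after plucking, and at 0.702 and 1.87 in wounds. The locus of Serpina11 and Serpina9, the latter known from germinal centre B cells, was level, at 3.17 and 3.08 after plucking and at 2.07 and 2.00 in wounds. A second locus of Serpine2 in the plucked table was at 0.905 and 3.90.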
